A study of Mus musculus with 4 samples.

Results

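The 10 genes described here encode the killing machinery of lymphocytes, and they were taken by symbol from the 27998 genes of the count tables: the granzymes Gzma, Gzmb, Gzmc, Gzmk and Gzmm, the pore former Prf1, the granule genes Nkg7 and Srgn, the death ligand Fasl and the granzyme inhibitor Serpinb9. Each symbol stood once in the tables, and each of the 10 genes had UMIs (unique molecular identifiers, 1 per captured mRNA molecule) in every library. Lung tissue of wild-type C57BL/6 mice, labelled male, was dissociated and sequenced by droplet single-cell RNA sequencing at 4 ages, named NB (10 days) and then 2 M, 10 M and 18 M for months. Each age had a single library, so an age and its library cannot be told apart, and differences between ages have no replicate check. Of 34037 cell barcodes, 28153 cells were kept, with 6377, 5537, 7862 and 8377 cells per library in order of age. Lists of 4 values below run in that order, from NB to 18 M. The median kept cell had between 3998.5 and 4308 UMIs, and each pair of libraries shared between 17 and 28 barcodes, at most 0.38% of the smaller library.

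The library labelled 18 M went against its labels. It held 578 CPM of Xist, which is transcribed from the inactive X of female cells, against at most 0.526 CPM in the other 3 libraries (CPM is the number of UMIs of a gene per 1000000 UMIs of a set of cells). The Y-linked gene Ddx3y was at 135 CPM there, against 199 to 236 CPM in the others. H19, which is known for expression around birth, was at 20.2 CPM against at most 0.0693 CPM. Rag1, a gene of developing T and B cells, was at 12.6 CPM against at most 0.406 CPM. NB did not bear out its label by H19 either, since this library, labelled 10 days, held 0 H19 UMIs. Its age was not tested further. Calls between gates, for the 10 genes and for the further genes of the pathway, are therefore also given without the library labelled 18 M. NB and 18 M below mean the libraries so labelled.

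Cells were gated by marker genes, none of which is among the 10. NK cells had UMIs of at least 2 of 7 NK genes (Ncr1, Klrb1c, Klre1, Klrd1, Klra8, Klra4, Eomes) and no Cd3 UMI, and they numbered 144, 429, 547 and 118. CD8 T cells had a Cd3 and a Cd8 UMI and no Cd4 UMI and numbered 865, 545, 714 and 644. The count tables used here hold 0 T cell receptor genes, so gamma-delta T cells could not be gated by their receptor. In their place stand T cells without Cd4 and Cd8b1 that had UMIs of at least 2 of 7 genes known from IL-17-producing gamma-delta T cells of mice (among them Cd163l1, 5830411N06Rik, Sox13, Il23r, Kcnk1 and Blk). These are called Cd163l1/Blk T cells, numbered 37, 20, 61 and 75, and were chosen after the gene table was seen. B cells numbered 1584 to 2358 and neutrophils 219 to 537 per library. The summed NK markers were at 2084, 2444, 2218 and 1317 CPM in NK cells and at 122 to 324 CPM in CD8 T cells, and the 3 Cd3 genes at 822 to 922 CPM in CD8 T cells. The median NK cell had between 3861 and 4828.5 UMIs and the median CD8 T cell between 6437.5 and 7313.

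Killer lymphocytes store perforin and granzymes in secretory granules and release them toward a target cell. Perforin opens pores in the target membrane, and granzymes are serine proteases that enter the target and cleave its proteins. Serglycin, the product of Srgn, is the proteoglycan on which granule contents are packed, NKG7 is a granule membrane protein, Fas ligand triggers death through the receptor Fas, and SERPINB9 inhibits granzyme B and shields the killer cell from its own enzyme. In mice, NK cells carry transcripts of granule proteins before they meet a target, whereas naive CD8 T cells make most of them only after activation. Protein was not measured here.

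The genes lie in small groups of the mouse genome (GRCm38, GENCODE annotation). Gzma spans chr13:113093825-113100981 and Gzmk chr13:113171608-113225908, both on the minus strand with 5 exons, and 0 protein-coding genes lie in the 70626 bases between them. Gzmb spans chr14:56258838-56262260 and Gzmc chr14:56231441-56234656, also on the minus strand, 24181 bases apart with 0 protein-coding genes between. Prf1 spans chr10:61297833-61304680 on the plus strand. The coding sequences of Gzmb and Gzmc were 75.6% identical and their transcripts shared 19 stretches of 31 bases, of which 0 lay in the last 500 bases, the end that 3′ libraries read. All other pairs among the 5 granzymes shared 0 such stretches.

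The promoters of the 4 genes on which the results turn most are shown because Gzma and Gzmk are neighbours with unlike patterns, Gzmb is counted in several cell types, and Prf1 separated NK cells from CD8 T cells most evenly. Each runs from 250 bases before to 50 bases after the start site annotated by RefSeq (GRCm38.p6). Capitals mark matches on either strand to the Runx motif TGTGGT, the T-box motif TCACACC, the AP-1 motif TGANTCA or the STAT motif TTCNNNGAA.
Gzma, chr13:113100932-113101231, minus strand: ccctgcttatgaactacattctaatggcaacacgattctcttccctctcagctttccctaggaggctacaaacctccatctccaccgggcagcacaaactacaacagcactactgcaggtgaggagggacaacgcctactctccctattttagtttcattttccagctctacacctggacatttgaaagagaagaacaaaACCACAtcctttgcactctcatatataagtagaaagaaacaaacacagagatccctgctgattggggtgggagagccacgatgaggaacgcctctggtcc
Gzmk, chr13:113180916-113181215, minus strand: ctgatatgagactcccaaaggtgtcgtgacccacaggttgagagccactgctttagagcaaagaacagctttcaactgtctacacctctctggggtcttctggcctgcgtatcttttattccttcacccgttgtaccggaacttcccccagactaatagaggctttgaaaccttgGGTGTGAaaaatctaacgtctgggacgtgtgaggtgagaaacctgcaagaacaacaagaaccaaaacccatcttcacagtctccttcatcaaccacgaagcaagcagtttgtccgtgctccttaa
Gzmb, chr14:56262285-56262584, minus strand: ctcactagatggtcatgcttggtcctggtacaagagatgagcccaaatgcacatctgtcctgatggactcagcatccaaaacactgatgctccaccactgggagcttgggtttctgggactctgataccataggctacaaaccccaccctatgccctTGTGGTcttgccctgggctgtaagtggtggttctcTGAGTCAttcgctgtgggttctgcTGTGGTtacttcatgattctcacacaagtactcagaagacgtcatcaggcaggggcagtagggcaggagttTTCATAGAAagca
Prf1, chr10:61297586-61297885, plus strand: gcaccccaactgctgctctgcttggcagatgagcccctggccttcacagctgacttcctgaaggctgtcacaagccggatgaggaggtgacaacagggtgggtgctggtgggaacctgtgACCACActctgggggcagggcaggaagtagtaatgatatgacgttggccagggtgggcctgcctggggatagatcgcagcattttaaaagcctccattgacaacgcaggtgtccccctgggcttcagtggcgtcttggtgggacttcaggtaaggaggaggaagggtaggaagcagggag
The Gzma promoter held 1 Runx match that began 50 bases before the start site, and the Prf1 promoter 1 that began 130 bases before it. The Gzmk promoter held no Runx match and 1 T-box match. The Gzmb promoter held 2 Runx matches, 1 AP-1 match and 1 STAT match, and was the only one of the 12 promoters of the 10 genes with an AP-1 match. Runx matches were found in 8 of the 12 promoters, for 8 of the 10 genes (all but Gzmk and Fasl), against 16.8% of the 32851 RefSeq promoters. T-box matches were found in 3 of the 12 promoters (of Gzmk, Gzmm and Nkg7), against 3.98% of the RefSeq promoters. AP-1 motifs were in 7.81% and STAT motifs in 8.3% of promoters, and STAT matches were found for Gzmb, Gzmm and Nkg7. A match is a run of letters, not a binding site. The start site of Gzmk used here lies inside the span that GENCODE gives the gene.

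NK cells held the highest levels of 6 of the 10 genes among the 5 gates in every library, and the comparison with CD8 T cells was tested over the 4 libraries, with the library as a block (edgeR quasi-likelihood test on summed UMIs, Benjamini-Hochberg adjustment over all genes tested). Of the 8 genes that passed the filter on low counts, Gzma, Gzmb, Prf1, Nkg7, Fasl and Serpinb9 were higher in NK cells, Gzmm was lower, and Srgn did not pass the threshold. Over the 8545 genes tested, gating markers aside, 15.8% were higher and 14.3% lower. The median log2 fold change was 2.79 over the 8 genes and 0.00246 over all genes tested. Gzmc and Gzmk did not pass the filter. TMM scaling gave fold changes that lay a median of 0.23 (log2) below those by total UMIs, and fold changes below are relative to it. Without 18 M, Gzma, Gzmb, Prf1, Nkg7 and Serpinb9 were called higher and Gzmm and Gzmk lower.

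**Figure D1:**
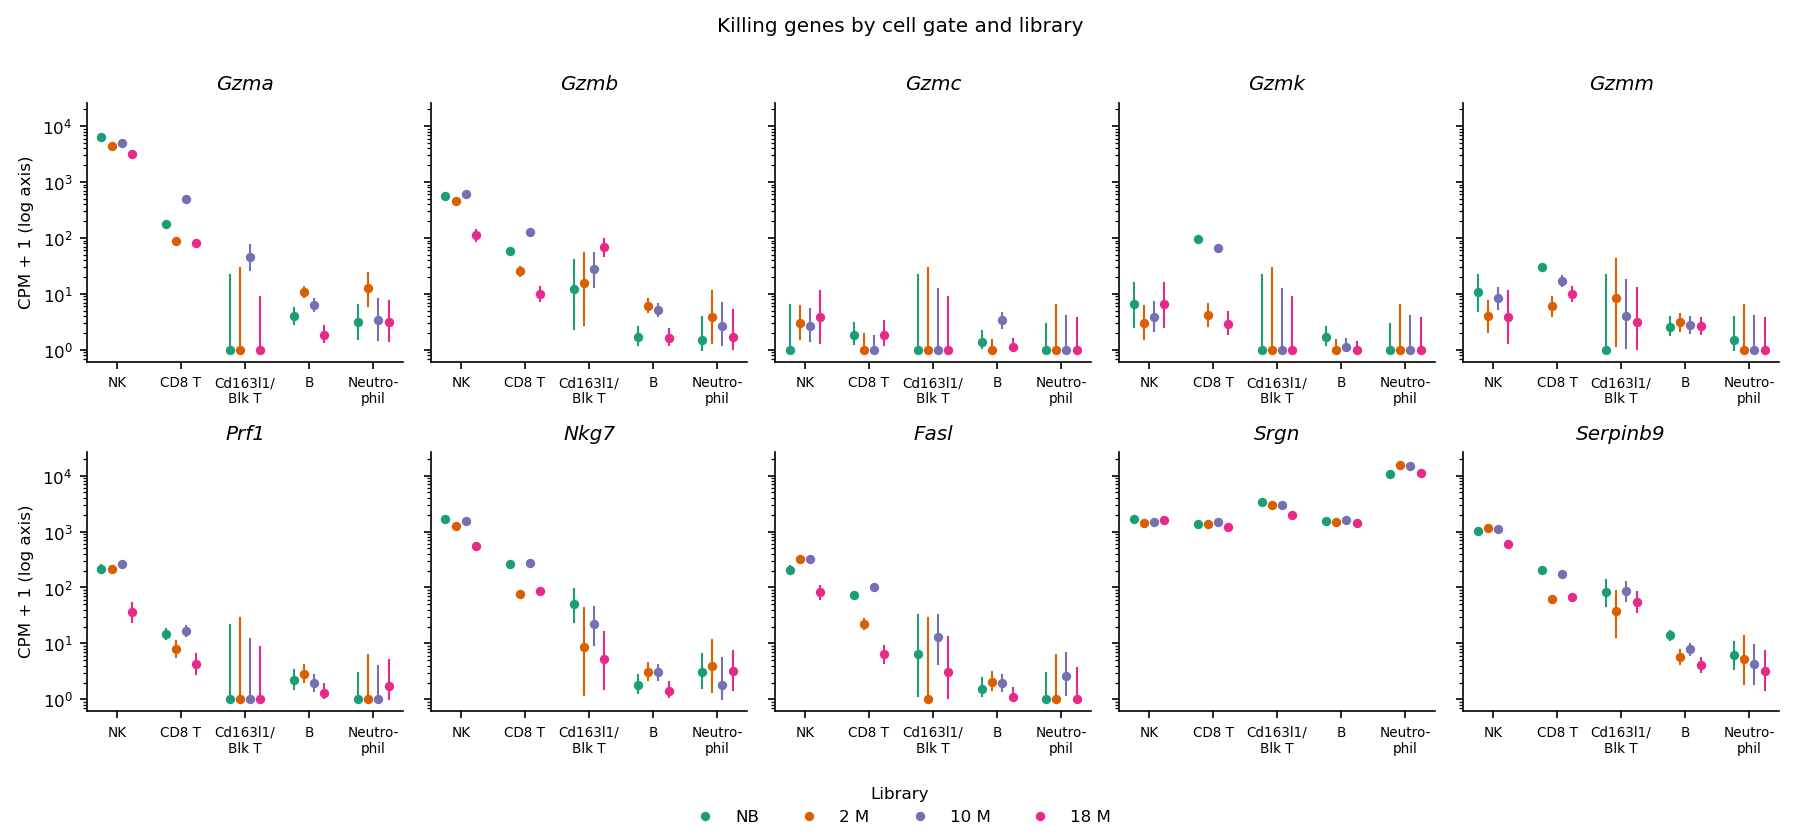
Level of each gene (CPM + 1, log axis) in NK cells, CD8 T cells, Cd163l1/Blk T cells, B cells and neutrophils of the 4 libraries, 1 point per library with its exact 95% Poisson interval. Gzma lay between 3166 and 6365 CPM in NK cells and at most at 11.5 CPM in B cells and neutrophils, Gzmk was highest in CD8 T cells of NB and 10 M, and Srgn was highest in neutrophils.

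Gzma, a granzyme with trypsin-like activity, was at 6365, 4470, 4932 and 3166 CPM in NK cells, against 175, 88.1, 494 and 80.8 CPM in CD8 T cells. The gates did not overlap, and the level in NK cells was between 9.99 and 50.7 times that in CD8 T cells of the same library. The log2 fold change was 4.71 ± 0.58 (SE, 4 libraries, edgeR adjusted p = 0.00128). UMIs of Gzma were found in 88.9, 97.2, 96.5 and 93.2% of NK cells, and in 11.9, 7.89, 22.3 and 17.4% of CD8 T cells. After each cell was thinned to 1000 UMIs, the shares were 86.8, 90.2, 89.5 and 81.2% of NK cells and 6.94, 2.94, 15 and 5.75% of CD8 T cells. Gzma UMIs were thus found in most NK cells of each library and in a minority of CD8 T cells, at equal depth as well.

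Gzmb, whose protease cleaves after aspartate and activates caspases, was at 570.3, 462, 601 and 111 CPM in NK cells, against 57.7, 24.4, 127 and 8.9 CPM in CD8 T cells. NK cells were higher in all 4 libraries, but 18 M NK cells lay below 10 M CD8 T cells, so the ranges overlapped. The log2 fold change was 3.0 ± 0.69 (SE, 4 libraries, edgeR adjusted p = 0.0192). The call was lost without NB (log2 fold change 2.96, edgeR adjusted p = 0.0896) and without 2 M (2.68, 0.124).

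Prf1, the gene of perforin, was at 217, 211, 258 and 35.7 CPM in NK cells, against 13.6, 6.97, 16 and 3.26 CPM in CD8 T cells. The gates did not overlap, and NK cells of 18 M stood well below those of the other 3 libraries. The log2 fold change was 3.90 ± 0.18 (SE, 4 libraries, edgeR adjusted p = 1.19e-10), with the smallest standard error of the 8 genes apart from Srgn. Thinned to 1000 UMIs, 20.1, 21.1, 22.2 and 4.27% of NK cells had a Prf1 UMI, against 2.55, 0.55, 1.96 and 0.466% of CD8 T cells.

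Nkg7 was at 1648, 1243, 1565 and 549 CPM in NK cells, against 265, 75.6, 275 and 85.7 CPM in CD8 T cells, with no overlap and a log2 fold change of 2.72 ± 0.26 (SE, 4 libraries, edgeR adjusted p = 4.33e-05). Serpinb9 was at 1009, 1167, 1117 and 609 CPM in NK cells, against 203, 60.5, 170 and 67.1 CPM in CD8 T cells, again with no overlap (2.87 ± 0.31, edgeR adjusted p = 0.000327). Fasl was at 206, 317, 328 and 81.3 CPM in NK cells, against 72.2, 21.4, 101 and 5.43 CPM in CD8 T cells, and here the ranges overlapped. Its log2 fold change was 2.31 ± 0.47 (SE, 4 libraries, edgeR adjusted p = 0.0116). Without 18 M the Fasl call was lost (2.03, edgeR adjusted p = 0.0534), as it was in a fit of the 2 gates alone (2.28, 0.0817).

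**Figure D2:**
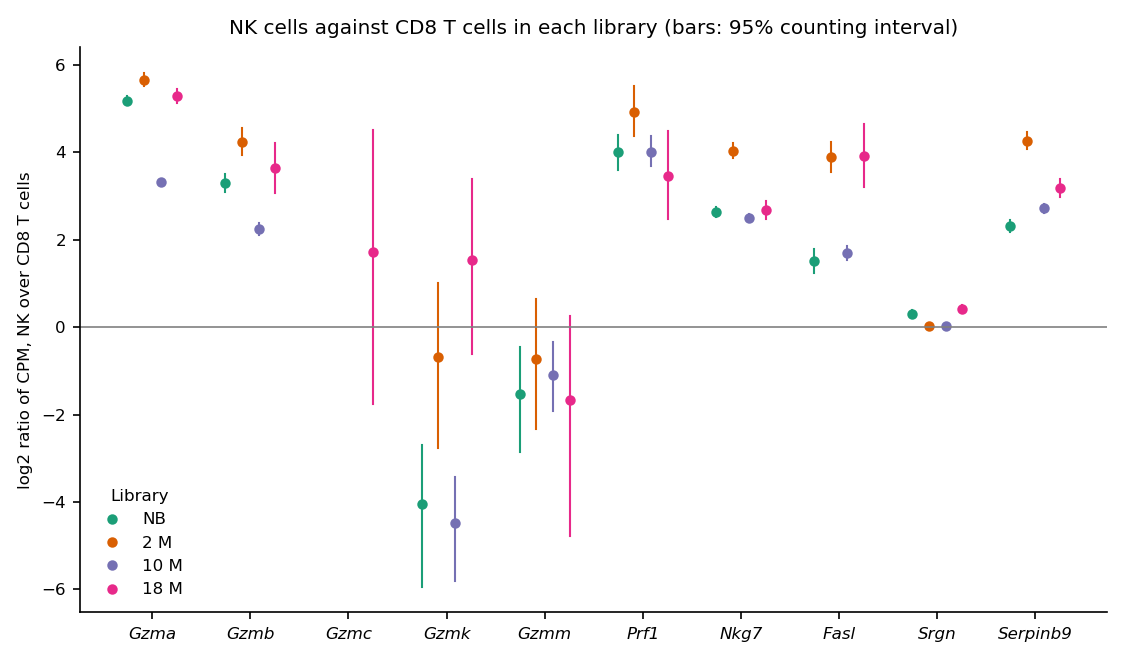
Log2 ratio of the level in NK cells to that in CD8 T cells (by CPM) for each gene in the 4 libraries, with 95% conditional binomial intervals. Gzma, Gzmb, Prf1, Nkg7, Fasl and Serpinb9 lay above 0 in all 4 libraries, Gzmm lay below 0 in all 4, and a point is missing where a gate was at 0 UMIs.

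Gzmm and Gzmk ran the other way. Gzmm, a granzyme that cleaves after methionine and leucine, was at 10, 3.02, 7.54 and 2.85 CPM in NK cells, against 28.7, 4.98, 16 and 9.12 CPM in CD8 T cells. NK cells were lower in all 4 libraries although the ranges overlapped, and the log2 fold change was -1.44 ± 0.32 (SE, 4 libraries, edgeR adjusted p = 0.00198). The NK values rest on 2 to 18 UMIs per library. Gzmk, a trypsin-like granzyme, was at 5.72, 2.02, 2.93 and 5.71 CPM in NK cells, against 95.1, 3.23, 65.8 and 1.95 CPM in CD8 T cells. It was thus lower in NK cells by far in NB and 10 M and at a few UMIs in both gates of 2 M and 18 M. Gzmk did not pass the filter, and in a fit without a filter, an alternative, its log2 fold change was -3.57 (edgeR adjusted p = 9.09e-25), where standard errors were much smaller than with the filter. Without 18 M, Gzmk passed the filter and was called lower in NK cells.

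Srgn did not separate the killer cells from other leukocytes. It was at 1707, 1393, 1499 and 1585 CPM in NK cells, against 1380, 1361, 1476 and 1192 CPM in CD8 T cells, and the log2 fold change was -0.04 ± 0.13 (SE, 4 libraries, edgeR adjusted p = 0.868). By total UMIs NK cells were higher in all 4 libraries, and the sign after TMM scaling differs because of the shift given above. B cells held 1547, 1508, 1591 and 1420 CPM of Srgn, and neutrophils 10673, 15788, 14820 and 10989 CPM, the highest of the 5 gates in every library.

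Gzmc was at 0, 2.02, 1.68 and 2.85 CPM in NK cells, which came from 0, 4, 4 and 2 UMIs, and at 0.839, 0, 0 and 0.868 CPM in CD8 T cells. The NK over CD8 T ratio of 18 M, 3.29 (0.297 to 22.9), has an interval that spans 1, and Gzmc is taken up again below where most of its UMIs lay.

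Gzma and Gzmb UMIs were also counted in the same cells. At 1000 UMIs per cell, 39.6, 30.9, 38.8 and 5.98% of NK cells had both, 47.2, 59.3, 50.7 and 75.2% had Gzma alone, and at most 1.47% had Gzmb alone. In CD8 T cells the shares with both were 1.97, 1.47, 7.42 and 0.466%, with Gzma alone 4.98, 1.47, 7.56 and 5.28%, and with Gzmb alone 2.89, 0.734, 4.62 and 0.621%. Since 81.2 to 90.2% of all NK cells had Gzma at this depth, most NK cells with Gzmb would have it by that share alone. Among CD8 T cells of 2 M, 8 cells had both and 4 had Gzmb alone, where 2.94% of all CD8 T cells had Gzma. Whether the genes go together was not tested, and a cell at this depth can miss a gene it expresses.

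Cd163l1/Blk T cells held few UMIs of most of the 10 genes. Against them NK cells were higher in Gzma, Prf1, Nkg7, Fasl and Serpinb9 and lower in Srgn, with 9.87% of the 8545 genes higher and 10.7% lower. CD8 T cells against them were higher in Gzma, Gzmm, Nkg7 and Prf1 and lower in Srgn, with 9.55% of all genes higher and 11.8% lower. Prf1 did not pass the filter when only these 2 gates were fitted. The median over the 8 genes was 4.59 for NK cells and 2.76 for CD8 T cells, against 0.0206 and 0.0443 over all genes tested. These 3 comparisons share sums with each other, and the Cd163l1/Blk T sums rest on 20 to 75 cells. TMM moved CD8 T fold changes against them by a median of -0.16 (totals minus TMM, log2), more in size than the 0.12 found for Gzmb. Without 18 M, Gzmb was called higher in NK cells as well, and in CD8 T cells Gzmk was called and Gzma was not.

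Prf1, Gzmk and Gzmc were at 0 UMIs in Cd163l1/Blk T cells of all 4 libraries, and Gzma was at 0 in 3 libraries and at 45.5 CPM in 10 M. Against a floor of 3 UMIs in each library, Prf1 was at least 13.1, 9.4, 28.4 and 5.62-fold higher in NK cells (edgeR adjusted p = 1.49e-08). In CD8 T cells Prf1 was at least 1.75-fold higher in 10 M, and the floor set no bound above 1 in the other 3 libraries. The edgeR adjusted p over the 4 libraries was 0.00224, from the fit that also held the NK sums. In a fit of only the 2 gates compared, Prf1 did not pass the filter, so this call rests on the presence of NK cells in the fit. Gzmk was at least 5.74-fold higher in CD8 T cells of NB and 7.23-fold in those of 10 M, without a test, and in 2 M and 18 M no higher level could be shown at this depth. For Gzma the edgeR adjusted p was 0.00055 for NK cells and 0.0188 for CD8 T cells. The second call, at a fitted log2 fold change of 4.07, was lost without NB (3.80, edgeR adjusted p = 0.0892), without 2 M (4.03, 0.0678) and without 18 M (3.79, 0.0973), and with a gate by Cd163l1 or 5830411N06Rik (2.25, 0.132). Of the 15 Gzma UMIs of Cd163l1/Blk T cells in 10 M, 13 lay in 1 cell.

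Nkg7 was at 49.7, 7.47, 21.2 and 4.23 CPM in Cd163l1/Blk T cells and lay below both other gates in every library (log2 fold change of NK cells 6.07 ± 0.39, edgeR adjusted p = 5.13e-06, and of CD8 T cells 3.35 ± 0.42, 0.000375). Fasl was at 5.52, 0, 12.1 and 2.11 CPM (5.38 ± 1.0 for NK cells, edgeR adjusted p = 0.011, and 3.07 ± 1.18 for CD8 T cells, 0.13), and without 10 M the call for NK cells was lost (5.97, edgeR adjusted p = 0.0515). Gzmm was at 0, 7.47, 3.03 and 2.11 CPM, from 0 or 1 UMI per library, with a log2 fold change of 2.45 ± 0.64 for CD8 T cells (edgeR adjusted p = 0.00887) and 1.01 ± 0.79 for NK cells (0.413). The Gzmm call for CD8 T cells was lost without NB (1.82, edgeR adjusted p = 0.101) and with T cells that carry NK markers left out (1.87, 0.0645), and the Nkg7 call for CD8 T cells with the gate by Cd163l1 or 5830411N06Rik (2.36, 0.0517). Fasl, Gzmb and Serpinb9 of CD8 T cells did not differ from those of Cd163l1/Blk T cells past the threshold.

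Gzmb was at 11, 14.9, 27.3 and 67.6 CPM in Cd163l1/Blk T cells, from 2, 2, 9 and 32 UMIs. In 18 M 15 of the 32 UMIs lay in 1 cell, and 6 of 75 cells (8%) had a UMI, against 9 of 61 (14.8%) in 10 M. By level 18 M stood above the 8.9 CPM of CD8 T cells, and in the other 3 libraries below them, and the difference did not pass the threshold (0.12 ± 1.04 for CD8 T cells, edgeR adjusted p = 0.962). For NK cells the log2 fold change was 3.12 ± 0.95 (edgeR adjusted p = 0.0691), and 5.01 without 18 M (0.00898). Serpinb9 was at 82.8, 37.3, 85 and 55 CPM and did not differ from CD8 T cells past the threshold (0.92 ± 0.39, edgeR adjusted p = 0.155), while NK cells were higher (3.79 ± 0.39, 0.000346). Srgn was at 3418, 2972, 3008 and 1958 CPM, above NK cells and CD8 T cells in every library (-0.91 ± 0.13 for NK cells, edgeR adjusted p = 2.65e-05, and -0.88 ± 0.13 for CD8 T cells, 3.71e-05). Alveolar type II transcripts (Sftpc, Sftpb, Sftpa1), which come from another cell type, summed to 171, 105, 9405 and 11369 CPM in these cells, and their part in the values was not tested.

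Of 39 further genes of the pathway, 32 passed the filter, and their counts stand beside the 15.8% of all genes tested that were higher and the 14.3% that were lower. In NK cells against CD8 T cells, Ctsw, a cathepsin of NK and CD8 T cells, and Cst7, the gene of the cathepsin inhibitor cystatin F, were higher (1.48 ± 0.19, edgeR adjusted p = 4.1e-05, and 1.26 ± 0.26, 0.00104). They are 2 of the 4 genes listed for granzyme activation and its inhibition, and whether granzymes are processed more was not measured. Ctsc, whose protease activates granzymes, was at 0.51 ± 0.28 and did not pass (0.207). Of 10 genes of granule release, 5 were higher (Cd63, Stx11, Stx7, Stxbp2, Vamp8) and none lower, and Lamp1, Rab27a, Unc13d, Lyst and Vamp7 did not pass. Of 4 serpins, Serpinb9b and Serpinb6b were higher (6.92 ± 0.36, edgeR adjusted p = 4.27e-09, and 2.66 ± 0.31, 0.000525). Serpinb9b, a paralog of Serpinb9, was at 54.3, 140.1, 56.5 and 64.2 CPM in NK cells and at most 0.998 CPM in CD8 T cells.

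On the receiving side of Fas ligand, the receptor gene Fas was lower in NK cells (-1.26 ± 0.21, edgeR adjusted p = 0.000101), as was Tnfrsf10b, a TRAIL receptor (-2.82 ± 0.42, 3.77e-05), and Casp8 was higher (0.40 ± 0.13, 0.0235), of 6 genes tested. Of 8 transcription factors of lymphocytes, Tbx21, Prdm1, Runx3, Id2 and Stat4 were higher (0.53 to 2.54). Tcf7, known from naive and less differentiated T cells, was lower (-1.58), as was Tox (-0.66). Zeb2 did not pass (1.61 ± 0.50, edgeR adjusted p = 0.0534). The other granzymes Gzmd, Gzme, Gzmf, Gzmg and Gzmn did not pass the filter. Without 18 M, the calls of these lists between NK and CD8 T cells remained apart from that of Tbx21, and Lyst and Tnfsf10 were also called lower and Cflar higher. The list medians were 0.889 for granzyme activation and its inhibition, 0.313 for granule release, 1.48 for serpins, 0.0272 for death receptors and 1.22 for transcription factors. Against Cd163l1/Blk T cells, Serpinb1a and Serpinb6a were lower in NK cells (-4.36 ± 0.60, edgeR adjusted p = 0.00164, and -1.76 ± 0.33, 0.000619) and in CD8 T cells (-4.66 ± 0.53, 0.00054, and -2.01 ± 0.31, 7.55e-05), and both calls were also made without 18 M in each comparison.

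Between ages, the 2 M library served as the baseline, and a gene with at least 20 UMIs over the 2 sums was counted as past 2-fold at a ratio of at least 2 or at most 0.5. Intervals of ratios are exact and cover counting error only, and no p-value was computed. The 3 comparisons share the 2 M library.

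In CD8 T cells, killing genes were higher in NB and 10 M than in 2 M. In NB, 6 of 9 genes were past 2-fold higher and 0 lower, against 5.6% and 3.26% of 9860 genes, and in 10 M 8 of 9 were higher and 0 lower, against 4.78% and 1.79% of 9754 genes. In 18 M 0 of 9 were higher and 3 lower, against 9.04% and 2.36% of 9924 genes. The median log2 ratio over the 9 genes was 1.75 in NB, 1.86 in 10 M and -0.191 in 18 M, against -0.0248, -0.0278 and 0.141 over all genes. Transcripts of other cell types were higher in CD8 T cells of 18 M as well. Erythroid genes summed to 22786 CPM there and to 6097 to 7622 CPM in the other libraries. Alveolar type II genes summed to 1461 CPM and 58.5 to 75.6 CPM, and the marker genes of Cd163l1/Blk T cells to 38.6 CPM and at most 2.74 CPM. Rag1, Rag2, Dntt and Ptcra, genes of developing lymphocytes, summed to 15.6 CPM (39.3 CPM in 18 M B cells) and at most 2.18 CPM. The part of all these transcripts in the 18 M ratios was not tested. The CD8 T gate also held cells with NK markers. Without those with UMIs of at least 2 NK genes or of Ncr1, 669, 504, 563 and 542 of the 865, 545, 714 and 644 cells remained.

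Gzmk differed most. Its 95.1 CPM in NB and 65.8 CPM in 10 M were 29.4 times (17.1 to 55.6) and 20.4 times (11.7 to 38.6) the 3.23 CPM of 2 M, and 18 M was at 1.95 CPM with a ratio of 0.604 (0.228 to 1.53). UMIs of Gzmk were found in 26.1, 1.47, 21.3 and 0.932% of CD8 T cells, and after thinning to 1000 UMIs in 9.03, 0.183, 8.68 and 0.155%. No single CD8 T cell of NB held more than 11 of their 567 Gzmk UMIs, so the level was spread over many cells. CD4 T cells followed the same order of libraries, with 52.2, 1.31, 23.8 and 0 CPM of Gzmk.

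Gzma in CD8 T cells was higher in 10 M than in 2 M by a factor of 5.61 (5.01 to 6.28), and its NB ratio of 1.99 (1.76 to 2.25) lay just under the threshold, as did that of Prf1 at 1.95 (1.26 to 3.11). A single cell held 103 of the 354 Gzma UMIs of 2 M, and a single cell of 10 M held 163 of 2475. In NB this was 102 of 1043. The intervals assume independent UMIs and are too narrow for such clumps. Gzmb was 2.37 (1.89 to 2.99) times the 2 M level in NB and 5.2 (4.19 to 6.5) times in 10 M. Fasl was 3.37 (2.67 to 4.3) and 4.73 (3.75 to 6.01) times the 2 M level. Gzmm, Nkg7 and Serpinb9 stood at ratios of 5.77, 3.5 and 3.36 in NB and 3.21, 3.64 and 2.81 in 10 M. Prf1 in 10 M was at 2.29 (1.47 to 3.66), and Srgn lay at 1.01 and 1.08. In 18 M the lower genes were Gzmb at 0.365 (0.247 to 0.531), Fasl at 0.254 (0.156 to 0.4) and Prf1 at 0.467 (0.232 to 0.905), the last from 15 UMIs. Gzma, Nkg7 and Serpinb9 of 18 M lay within 0.917 to 1.13 of the 2 M level.

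**Figure D3:**
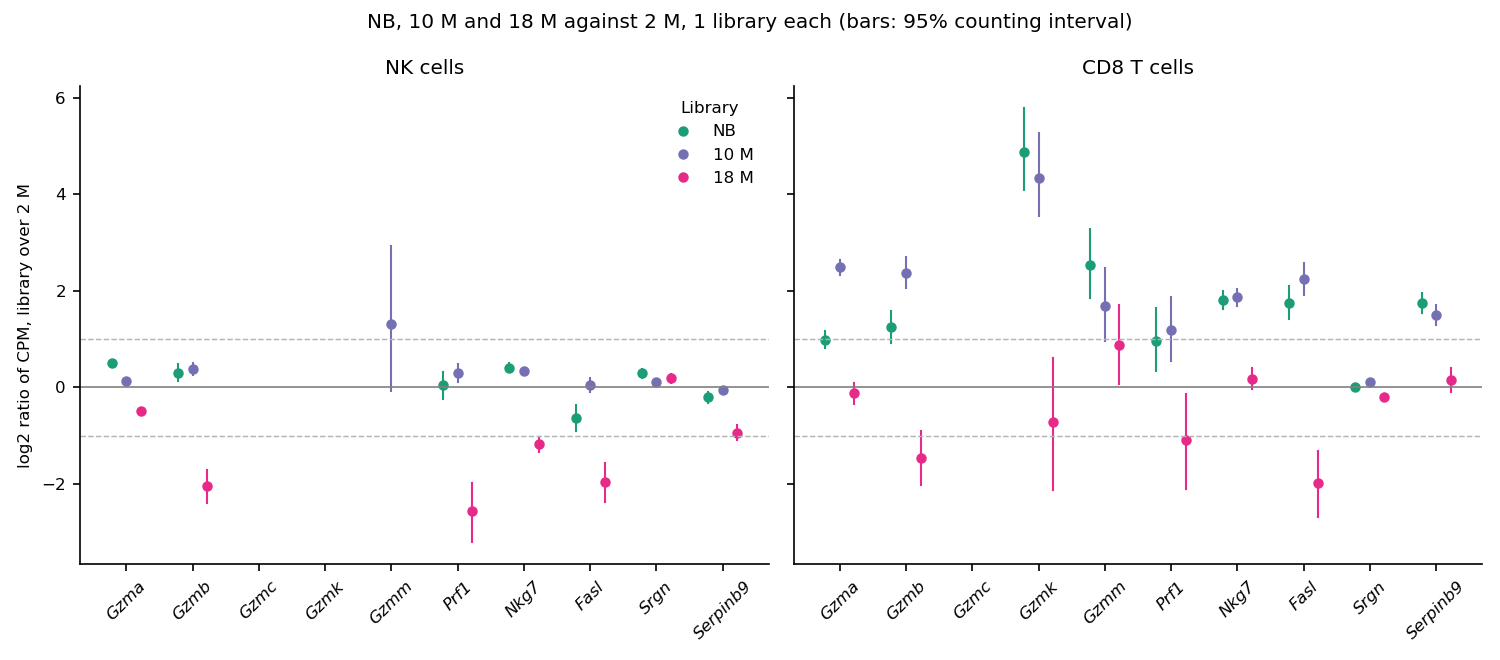
Log2 ratio of the level (by CPM) in NB, 10 M and 18 M to that in 2 M, for each gene in NK cells (left) and CD8 T cells (right), with 95% conditional binomial intervals and broken lines at 2-fold. In CD8 T cells NB and 10 M lie at 1.95 times the 2 M level or higher for the 8 genes other than Srgn, and in NK cells 18 M lies lowest for Gzmb, Prf1, Nkg7 and Fasl. Genes with under 20 UMIs over the 2 sums are not drawn.

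The CD8 T gate holds cells with naive and with effector markers, and their shares differed between libraries. Cells with a UMI of Ccl5, a chemokine of effector and memory T cells, and none of the naive T cell genes Ccr7 and Lef1 numbered 232 of 865 (26.8%) in NB, 13 of 545 (2.39%) in 2 M, 159 of 714 (22.3%) in 10 M and 13 of 644 (2.02%) in 18 M. The order of these shares is that of the Gzmk levels. Among these cells Gzmk was at 293, 0, 238 and 12.7 CPM, the 2 M value from 13 cells. Gzma among them was at 426, 1449, 1931 and 974 CPM, which puts NB lowest, whereas over the whole gate NB lay above 2 M. The 2 M and 18 M values of each gene in this set rest on 13 cells per library. A single CD8 T cell held 103 of the 354 Gzma UMIs of the whole 2 M gate, so the order of Gzma in this set can depend on few cells. Gzmb was at 156, 137, 478 and 215 CPM, highest in 10 M.

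CD8 T cells with a Ccr7 or Lef1 UMI held less of each of these genes in every library, except for Gzmk in 2 M. Their Gzma level was 116, 63.1, 229.6 and 66.2 CPM, their Gzmb level 34.4, 22.4, 62.2 and 5.39 CPM and their Gzmk level 45.4, 3.31, 34.2 and 1.8 CPM. The order of NB and 10 M above 2 M for Gzma, Gzmb and Gzmk was thus found among these cells too.

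**Figure D4:**
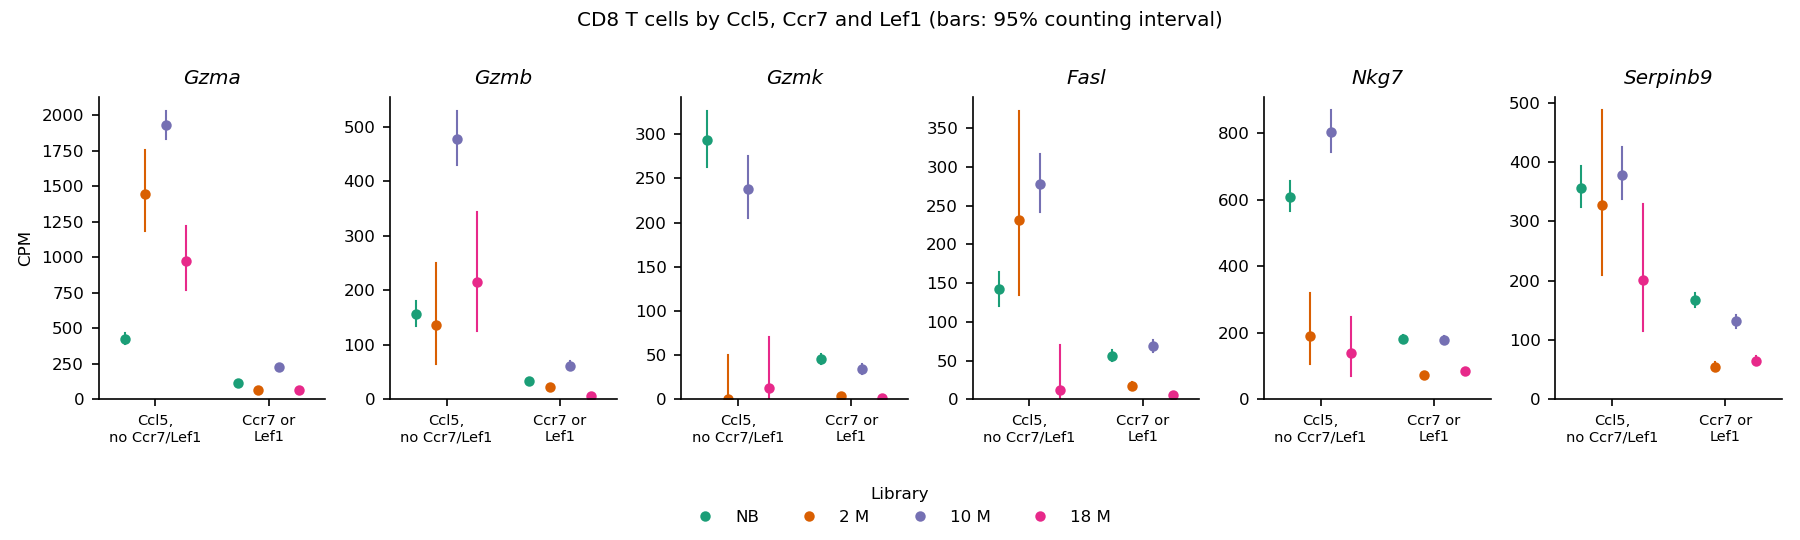
Level (CPM, linear axes that differ between panels) of Gzma, Gzmb, Gzmk, Fasl, Nkg7 and Serpinb9 in CD8 T cells with Ccl5 and without Ccr7 and Lef1, and in CD8 T cells with Ccr7 or Lef1, of the 4 libraries, with exact 95% Poisson intervals. Gzmk is near 0 in 2 M and 18 M in both sets, and Gzma of the Ccl5 set is lowest in NB (426 CPM). The Ccl5 set holds 13 cells in 2 M and 13 in 18 M.

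In NK cells the killing genes of NB and 10 M lay near those of 2 M. In NB 0 of 7 genes were past 2-fold in either direction, against 2.85% higher and 6.21% lower of 8048 genes. In 10 M 1 of 8 was higher and 0 lower, against 3.29% and 1.77% of 9047 genes, and that gene was Gzmm, at 2.49 (0.948 to 7.67) from 18 and 6 UMIs. Gzma was at 1.42 (1.37 to 1.48) times the 2 M level in NB and 1.1 (1.07 to 1.13) in 10 M, and Prf1 at 1.03 (0.851 to 1.24) and 1.23 (1.08 to 1.39). Fasl in NB was at 0.648 (0.537 to 0.778). Alveolar type II transcripts summed to 5652 CPM in NK cells of NB and to 94.2 to 294 CPM in those of the other libraries, and their part was not tested.

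NK cells of 18 M held less of most killing genes. Of 7 genes, 0 were past 2-fold higher and 4 lower, against 4.43% and 9.26% of 8088 genes. The level relative to 2 M was 0.241 (0.189 to 0.304) for Gzmb, 0.169 (0.108 to 0.254) for Prf1, 0.442 (0.396 to 0.492) for Nkg7 and 0.256 (0.192 to 0.336) for Fasl. Serpinb9 at 0.522 (0.47 to 0.579) lay just outside the threshold, Gzma was at 0.708 (0.676 to 0.742) and Srgn at 1.14 (1.06 to 1.22). Gzma thus differed less than Gzmb and Prf1, and the share of NK cells with Gzma alone was the highest of the 4 libraries. The median log2 ratio over the 7 genes was -1.18 in 18 M, 0.293 in NB and, over 8 genes, 0.218 in 10 M, against -0.0786, -0.104 and -0.0434 over all genes.

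Other values of 18 M NK cells differed as well. A UMI of Klra8 or Klra4, receptor genes of mature NK cells, was found in 54.2, 73.4, 74.6 and 28.8% of NK cells. Genes of innate lymphoid cells (Gata3, Il1rl1, Rora, Il7r) summed to 561 CPM in 18 M and to 327 to 349.7 CPM in the others, and 12.7% of 18 M NK cells against 0.914 to 3.47% of the others had UMIs of at least 2 of 6 cell cycle genes. Among NK cells with Klra8 or Klra4, Gzmb was at 554, 423, 624 and 106 CPM and Prf1 at 232, 199.9, 264 and 48 CPM. Among NK cells with neither, Gzmb was at 588, 573, 537 and 114 CPM and Prf1 at 202, 241, 244 and 30.5 CPM. Without dividing cells Gzmb of 18 M was at 128 CPM and Prf1 at 40.7 CPM.

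The 18 M cells were also parted by sex-linked transcripts. The 47 NK cells with Xist and no Y-linked UMI held 3030 CPM of Gzma, 96.7 CPM of Gzmb and 44.6 CPM of Prf1, and the 49 with a Y-linked UMI and no Xist held 3367, 138 and 34.6 CPM. Both sets lay below the NK cells of every other library for Gzmb and Prf1.

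In B cells and neutrophils, which serve here as a measure of free RNA, the genes other than Srgn were found at low levels. Cells of these gates with a Cd3 UMI or UMIs of at least 2 NK genes were left out beforehand. Those that carried RNA of several NK genes thus do not enter these levels. Under wider or stricter gates, 36 of 64 levels moved out of their intervals. Gzma was at 3.07, 9.95 and 5.33 CPM in B cells of NB, 2 M and 10 M, from 8 UMIs under 1 CPM in those of 18 M, and at 2.09, 11.5, 2.43 and 2.19 CPM in neutrophils, where it rested on 3 to 8 UMIs per library. A Gzma UMI was found in 1.26, 1.05, 1.53 and 0.354% of B cells and in 0.745, 3.65, 0.822 and 0.688% of neutrophils. Thinned to 1000 UMIs per cell, the shares with Gzma were 6.94, 2.94, 15 and 5.75% of CD8 T cells, against 0.126, 0.5, 0.424 and 0.133% of B cells and 0.192, 1.42, 0 and 0.235% of neutrophils. In 2 M the intervals of CD8 T cells (1.69 to 4.72%) and of neutrophils (0.293 to 4.08%) overlapped. The median B cell had 3194 to 3922 UMIs and the median neutrophil 2498 to 3361. Gzmk was at 0 UMIs in neutrophils of all 4 libraries and at most at 0.668 CPM in B cells, and Prf1 was at 0 UMIs in neutrophils of 3 libraries. Per Nkg7 UMI, NK cells held 3.86 (3.62 to 4.12), 3.6 (3.44 to 3.76), 3.15 (3.04 to 3.27) and 5.76 (5.17 to 6.44) Gzma UMIs. B cells held 3.83 (1.52 to 11.5), 4.69 (2.71 to 8.62), 2.6 (1.53 to 4.6) and 2 (0.536 to 9.08). A single cell held 22 of the 75 Gzma UMIs of 2 M B cells and 16 of the 52 of 10 M. Prf1 UMIs per Nkg7 UMI were 0.132, 0.169, 0.165 and 0.0649 in NK cells. In B cells they were 1.5 (0.477 to 5.12), 0.875 (0.396 to 1.91), 0.45 (0.18 to 1.03) and 0.75 (0.11 to 4.43). These rested on 9, 14, 9 and 3 Prf1 UMIs. For Gzmb in 2 M the ratio was 0.372 (0.344 to 0.401) in NK cells and 2.44 (1.33 to 4.67) in B cells, but 24 of the 39 Gzmb UMIs of these B cells lay in 1 cell, and so did 21 of the 41 of 10 M and all 5 of NB, and the intervals assume independent UMIs.

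A part of each gene's UMIs lay outside the gates. NK cells held 67.9, 81.9, 68.4 and 45% of the Gzma UMIs of the 4 libraries, and CD8 T cells 54.6, 65, 70.8 and 42.9% of those of Gzmk. Of Fasl UMIs, 15.7, 66.1, 40.6 and 25.9% lay in NK cells and 46.9, 9.02, 26.3 and 11.4% in CD8 T cells. Between these gates, CD8 T cells held the larger part in NB and NK cells in the other libraries. CD4 T cells held 9.71, 7.14, 6.27 and 11.8%, and in 18 M 50% lay in cells of no gate. The number of NK cells gated enters these shares. Cells of no gate with both a Cd3 UMI and UMIs of at least 2 NK genes, a set chosen after values were seen, numbered 103, 37, 103 and 97. They held 531, 363, 936 and 1509 Gzma UMIs, in 18 M 30.6% of the library's total, at 725, 1324, 1118 and 1924 CPM. Doublets of a T cell and an NK cell were not told apart from single cells.

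**Figure D5:**
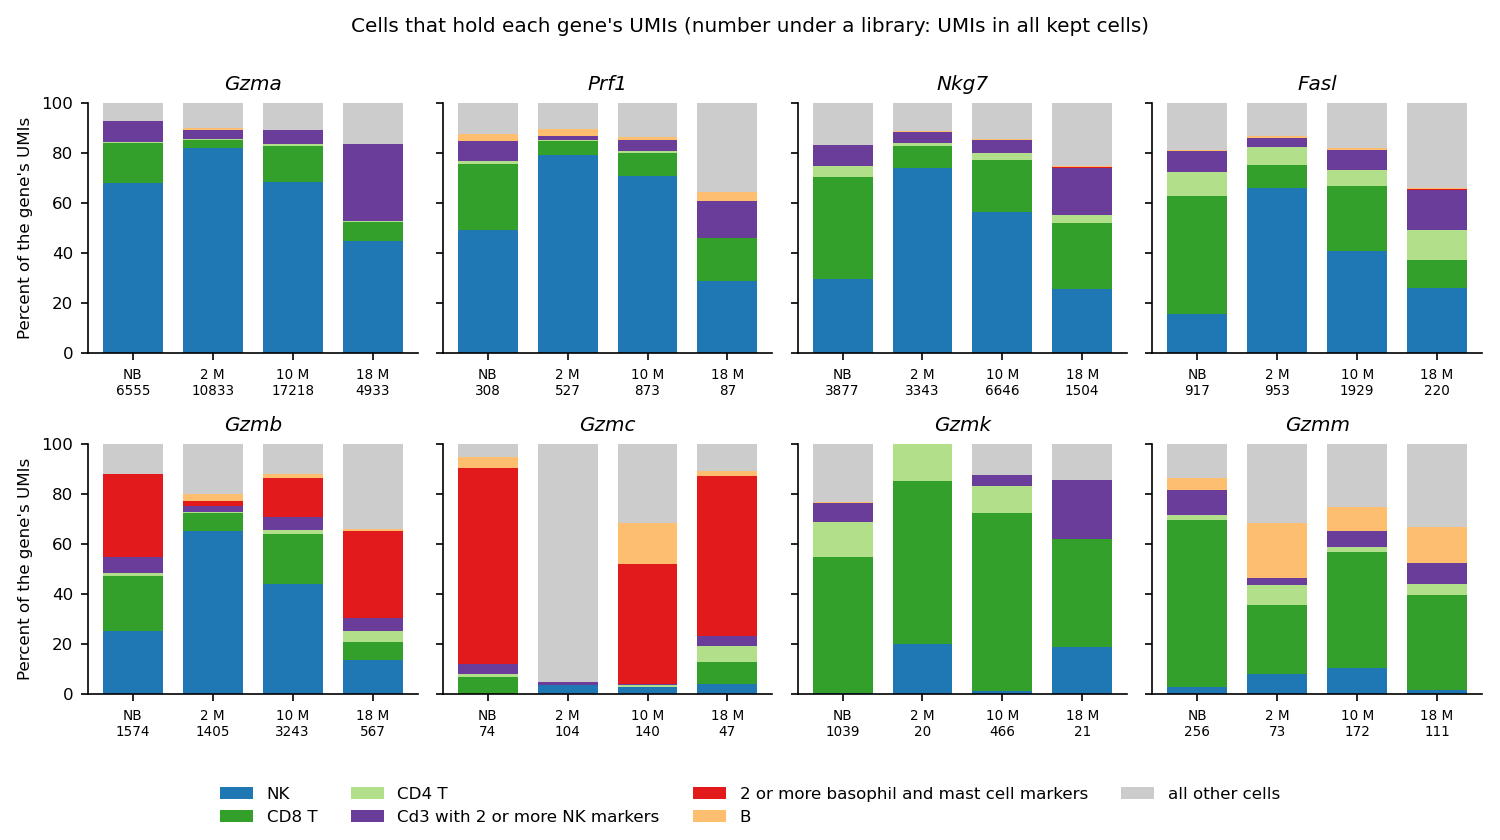
Percent of each gene's UMIs in a library that lay in each set of cells, for 8 of the 10 genes, with the number of UMIs under each library. Gzma and Prf1 lie mostly in NK cells in 2 M and 10 M, Gzmk lies mostly in CD8 T cells in NB, 2 M and 10 M, and cells with 2 or more basophil and mast cell markers hold 32.9% of Gzmb and 78.4% of Gzmc in NB. The sets do not overlap, and the sets by Cd3 with NK markers and by basophil and mast cell markers hold cells of no gate.

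Gzmb and Gzmc were also found outside lymphocytes. Cells of no gate with UMIs of at least 2 of Mcpt8, Cpa3, Gata2 and Fcer1a, which mark basophils and mast cells, numbered 16, 4, 26 and 59, a set chosen after values were seen. They held 518, 28, 516 and 196 Gzmb UMIs, found in 14, 3, 19 and 25 cells, which were 32.9, 1.99, 15.9 and 34.6% of the library's Gzmb UMIs. By level this was 8140, 1578, 5148 and 764 CPM, above NK cells in every library. Serpinb9 was at 0, 56.3, 29.9 and 11.7 CPM in these cells, from at most 3 UMIs. Gzma, Gzmk and Prf1 were at 0 UMIs in these cells of all 4 libraries, and Srgn was at 12540, 12902, 12710 and 7521 CPM. Mcpt8, a serine protease gene of basophils, lies 173564 bases from Gzmb on chromosome 14 and shared 0 stretches of 31 bases with it (60.7% coding identity). Of Gzmc UMIs, the same cells held 58, 0, 67 and 30, in 6, 0, 3 and 4 cells. Gzmc was clumped, with 77 of the 104 UMIs of 2 M in a single cell, and its values describe few cells.

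Across 20 sums (5 gates in 4 libraries), the 10081 genes with enough UMIs were ranked by Pearson's r with 4 of the genes on log2(CPM + 10), with the 10 genes and the gating markers left out of the ranking. The sums share libraries, and r is a description of them. Nearest to Gzma were Baiap3 (r = 0.988), Il12rb2, a chain of the IL-12 receptor (0.981), and Xcl1, a chemokine (0.976). Nearest to Prf1 were Qrfp (0.988) and the NK receptor genes Klra3 (0.985) and Klra9 (0.979). Nearest to Gzmb were Tmem37 (0.95) and Sytl3 (0.933), and its r with Serpinb9 and Fasl, of the 10 genes, was 0.949 and 0.945. Outside the 10 genes, nearest to Gzmk were Cd6, a T cell surface receptor (0.783), Tnfsf10, the gene of TRAIL (0.773), and Mboat1 (0.741). Among the 10 genes themselves, r was 0.961 between Gzma and Nkg7 and between Gzma and Fasl, 0.852 between Gzmk and Gzmm, 0.384 between the neighbours Gzma and Gzmk, and -0.451 between Gzma and Srgn.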

How the data were processed

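The deposited files hold UMI counts of each gene in each barcode, which the authors made from 4 lung libraries of the 10x 3′ kind, and the submitters' processing notes name Cell Ranger 3.0.2, mm10 and Seurat 2.0. The matrix headers carry software version 3.1.0. The number of mice per library is not given in the sources used here. No normalization was applied to the deposited counts.

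Kept cells had more than 200 genes but fewer than 5000, no more than 25000 UMIs, and a mitochondrial share below 8%. Doublets were not removed. UMIs were summed per gate and library. B cells had at least 3 of 4 markers (among them Cd79a, Cd79b and Ms4a1) and neutrophils at least 4 of 8 (S100a8, S100a9, Csf3r, Cxcr2, Retnlg, Mmp9, Il1r2, Ly6g), both without Cd3. Both gates also left out cells with UMIs of 2 or more of the 7 NK genes. Gates were compared with edgeR 4.0.16 (TMM, filterByExpr, quasi-likelihood, library as a block) over 12 sums of 3 gates, adjusted over all genes. The p-values measure the spread over 4 libraries that differ in age. The fit was tested on simulated data. Levels carry exact Poisson intervals, shares Clopper-Pearson intervals and ratios conditional binomial intervals, at 95%. The spread between mice is not in them. The planned gate for gamma-delta T cells needed receptor genes and was replaced as the report says.

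The genes and lists were chosen with earlier results of these data known. Genes outside the 10 were named where they belong to the listed pathway genes or were among the 3 nearest in r. Some marker and gene names are not reported here. Positions come from GENCODE and promoters from RefSeq, where 12 promoters matched the 10 symbols. Protein sequences were not used here. Alternatives were DESeq2 1.42.0, other filters, gates, cell limits, folds, minimums, pseudocounts and thinning depths, no block, and each library left out. The scripts ran under R 4.3.3 with limma 3.58.1 and under Python 3.11.15 with scipy 1.17.1, Biopython 1.88, pandas 2.3.3, matplotlib 3.10.9 and numpy 2.4.6.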

Additional observations from a re-analysis of the deposited data

Results flagged for a closer look

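NK cells of the library labelled 18 M stood apart from those of the other 3 for 2 genes. On log2(CPM + 1), the gap between 18 M and the next library was 0.844 of the whole range for Gzmb and 0.898 for Prf1, above Dixon's 95% critical value for 4 values. Chance alone passes it in about 5% of such groups, and 20 groups of a gene in a killer gate were screened, so about 1 pass is given by chance. The levels were 570.3, 462, 601 and 111 CPM of Gzmb and 217, 211, 258 and 35.7 CPM of Prf1 in the 4 libraries from NB to 18 M.

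For 3 genes NK cells and CD8 T cells moved in opposite directions between the same libraries, beyond counting error in each. Fasl in NB was 0.648 of the 2 M level in NK cells and 3.37 times it in CD8 T cells. Serpinb9 in NB was 0.865 of the 2 M level in NK cells and 3.36 times it in CD8 T cells. Srgn in 18 M was 1.14 times the 2 M level in NK cells and 0.876 of it in CD8 T cells. With 1 library per age these differences were not tested.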

How the results depend on the processing

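No direction of a called result reversed under any alternative run. Of 416 alternative fold changes between gates, 385 kept their side of the threshold, 16 came past it and 15 lost it. Genes lower in NK cells than in CD8 T cells (1, Gzmm) numbered 2 without a filter, with the 2 gates alone and with 5 gates, and 0 to 2 with each library left out. Gzmm did not pass the filter without 2 M or 10 M, and Gzmk was the added gene without 18 M. Genes higher in CD8 T cells than in Cd163l1/Blk T cells (4) numbered 7 without a filter and with 5 gates, 2 without the replicate block, 2 to 4 with each library left out and 2 with the gate by Cd163l1 or 5830411N06Rik, an alternative chosen after the data were seen. Without the replicate block Fasl in NK against CD8 T cells was at a log2 fold change of 1.97 (edgeR adjusted p = 0.108), and in CD8 T against Cd163l1/Blk T cells Prf1 was at 7.56 (0.367) and Gzmm at 2.60 (0.0868). DESeq2 called Gzmb in NK against Cd163l1/Blk T cells (adjusted p = 0.00152) and Fasl and Serpinb9 in CD8 T against Cd163l1/Blk T cells (0.00105 and 0.0366). The block pairs sums of the same library. The causes were not tested.

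Against 2 M, 642 of 704 ratios and 167 of 176 counts stayed within the set limits, as did 53 of 160 shares of cells at 500 or 2000 UMIs and 28 of 64 levels in B cells and neutrophils with wider or stricter gates. In NK cells of NB, 1 gene was higher at a minimum of 10 UMIs and 1 lower at a fold of 1.5 (0 each). In NK cells of 10 M, the 1 higher gene became 0 at a minimum of 50 UMIs, at a fold of 3 and, added after the data were seen, in cells with or without Klra8 and Klra4. In CD8 T cells of 18 M, 1 gene was higher (0) at a fold of 1.5 and in cells with Y-linked UMIs and no Xist (added likewise), and 1 was lower (3) at a fold of 3. Gates of 20 to 75 Cd163l1/Blk T cells and NK sums of under 20 UMIs limit Gzmm, Gzmk and Gzmc.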
